A study of Mus musculus with 6 samples.

Results

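The Dlk1-Dio3 region is an imprinted stretch of mouse chromosome 12, here chr12:109452823-110281097 (GRCm38), the start of Dlk1 to the end of Dio3. In it the chromosome inherited from the mother gives rise to long noncoding RNAs (Meg3, Rian, Mirg) that carry a large array of miRNA hairpins. Among 1832 small RNA sequences that the authors could place on the genome but did not assign to any annotated RNA, 6 start in this region, and these 6 are described here. They were chosen by position, with earlier results of these data known. All 6 lie on the plus strand, the strand of the maternally expressed noncoding RNAs, and 0 lie on the strand of Rtl1, the paternally expressed gene of the region. The name "unannotated" covers only how the reads were sorted, since 5 of the 6 lie wholly inside 3 annotated miRNA hairpins (Mir379, Mir411 and Mir382) and 1 lies just upstream of Rian.

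The mice were C57BL6 males, 16 weeks old and fed normal chow, and small RNA of their skeletal muscle was sequenced in 3 libraries after transverse aortic constriction (TAC) and 3 sham-operated control libraries (Sham). In TAC the aorta is narrowed so that the left ventricle pumps against a raised pressure, which leads to hypertrophy and heart failure. The records give 8 weeks of treatment and the protocol 8 to 10 weeks, and neither names the muscle. Nothing in the labels says which libraries came from separate animals, so p-values measure the spread between these libraries, which may be technical. Levels are counts of unique molecular identifiers (UMIs, tags put on each molecule before amplification), given per 1000000 miRNA UMIs of the library and abbreviated UPM.

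A miRNA is cut from its hairpin by Drosha and Dicer, and either arm can become the mature strand (5p or 3p). Bases 2 to 8 from its 5′ end, the seed, do most of the work of finding target mRNAs. A mature sequence that differs from the reference therefore matters most when its 5′ end is shifted or a base of the seed is changed. ADAR enzymes convert adenosine to inosine in double-stranded RNA, with a preference for an A between U and G. Sequencing reads inosine as G, and the miR-379 and miR-411 hairpins are known substrates. In bulk muscle RNA, fewer cells of a type and less RNA per cell cannot be told apart.

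The 5 hairpin sequences are shown because their seeds differ from those of the annotated miRNAs. They are printed from the deposited file 5′ to 3′, with the mature miRNAs of RefSeq (GRCm38.p6) beside them, and capitals mark bases 2 to 8 of each sequence counted from its own 5′ end.
miR-379-5p, RefSeq, chr12:109709065-109709085: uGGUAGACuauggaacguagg
miR-379-5p G form, chr12:109709065-109709085: tGGTGGACtatggaacgtagg
miR-411-5p, RefSeq, chr12:109710190-109710210: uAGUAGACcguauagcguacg
miR-411-5p G form, chr12:109710190-109710210: tAGTGGACcgtatagcgtacg
miR-411-5p G form with an earlier 5′ end, chr12:109710189-109710210: aTAGTGGAccgtatagcgtacg
miR-382-3p, RefSeq, chr12:109733819-109733840: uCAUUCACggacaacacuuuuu
miR-382-3p early-start form, 22 bases, chr12:109733817-109733838: aATCATTCacggacaacacttt
miR-382-3p early-start form, 21 bases, chr12:109733817-109733837: aATCATTCacggacaacactt

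The 3 G forms each differ from their RefSeq hairpin by a single substitution. It is A5G in each of them, counted from 1 at the 5′ end of the mature miRNA, and it lies in the seed. In the miR-411-5p sequence that starts 1 base earlier, the same change is A6G from its own 5′ end. The annotated miR-379-5p and miR-411-5p are alike at 14 of 21 positions, and the changed A stands in both between a U and a G. The 2 miR-382-3p forms hold no substitution and match the hairpin exactly. They start 2 bases before the annotated mature miRNA, so their seed is shifted, and they differ from each other by the last base. They also end earlier, at 109733838 and 109733837 against 109733840 for the annotated miR-382-3p. Of 571 unannotated sequences of the whole table that lie wholly inside a RefSeq hairpin, 525 carried 1 substitution and 17 carried 0.

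The hairpins place these sequences in their precursors, and capitals mark the stretch that the sequences above cover. In the predicted minimum free energy fold (RNAfold 2.7.2) the base changed in the G forms is unpaired in both hairpins, at base 10 of Mir379 and base 20 of Mir411.
Mir379, chr12:109709060-109709125, plus strand: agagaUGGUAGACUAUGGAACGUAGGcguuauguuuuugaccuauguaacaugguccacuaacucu
Mir411, chr12:109710175-109710256, plus strand: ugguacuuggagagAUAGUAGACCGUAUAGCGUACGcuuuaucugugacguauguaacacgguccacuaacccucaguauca
Mir382, chr12:109733771-109733846, plus strand, within the noncoding RNA gene Mirg: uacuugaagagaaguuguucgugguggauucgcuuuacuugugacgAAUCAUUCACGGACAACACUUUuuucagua

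The seed changes altered which annotated mouse miRNAs share bases 2 to 8, among 1679 mature miRNAs in the RefSeq table. The annotated miR-379-5p shares them with miR-1193-5p, and its G form shares them with miR-7672-5p. The annotated miR-411-5p shares them with miR-7229-5p, and its G form with 0 others. The G form with the earlier start shares them with miR-1951. For the annotated miR-382-3p and its early-start forms there were 0 others.

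The sixth sequence, 18 bases long at chr12:109603818-109603835, lies outside any annotated miRNA hairpin. It ends 110 bases before the RefSeq start of Rian, a long noncoding RNA that hosts many small nucleolar RNAs, and 47 bases before the GENCODE gene Gm27350, a miscellaneous RNA. The position is the authors' placement, and whether its letters also occur elsewhere in the genome was not checked here. They were searched on both strands of the promoter windows of the RefSeq table (250 bases before to 50 after a gene's start). They occur in 1 of 32851 windows, that of Rian, shown here with the sequence in capitals.
Rian start region, chr12:109603695-109603994, plus strand: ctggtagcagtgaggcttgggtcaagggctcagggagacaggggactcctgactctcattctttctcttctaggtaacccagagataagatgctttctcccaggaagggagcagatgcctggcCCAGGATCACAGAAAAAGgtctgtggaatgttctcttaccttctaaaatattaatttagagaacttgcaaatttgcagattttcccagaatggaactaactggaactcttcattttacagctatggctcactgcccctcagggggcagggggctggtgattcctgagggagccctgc

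Libraries held 2145221 to 2874724 miRNA UMIs in TAC and 1179365 to 3440232 in Sham, with Sham 3 the shallowest. The 6 miRNAs taken as skeletal muscle markers were all listed and summed to 601443 to 615446 UPM in TAC and 532547 to 614769 in Sham. The liver miRNA miR-122-5p had 63.6 to 1895 UPM in TAC and 3.39 to 17.4 in Sham. The epithelial miR-200 family, with 3 of 5 markers listed (miR-200c-3p and miR-141-3p were not), summed to 1.31 to 6.26 UPM in TAC and 22.9 to 68.6 in Sham. The 4 immune miRNAs, all listed, summed to 1093 to 1118 UPM in TAC and 1241 to 1684 in Sham. Of 2 neural markers miR-9-5p was listed, with 46.1 to 52.9 UPM in TAC and 49.997 to 91.6 UPM in Sham, and miR-124-3p was not listed. Their part in the results that follow was not tested.

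The 22-base form of miR-382-3p was called lower in TAC muscle and the 21-base form lay just short of the threshold. Both passed the filter on low counts through their Sham libraries, which favours a lower TAC value among tested sequences. The G forms of miR-411-5p and miR-379-5p did not pass the test, whereas the annotated miRNAs of the same arms fell. The 22-base miR-382-3p form was the most abundant of the 6 in Sham. It had 3.48, 3.73 and 4.79 UPM in TAC 1, 2 and 3, against 22.1, 16.1 and 26.3 in Sham 1, 2 and 3. Every TAC library was lower than every Sham library. It averaged 4.0 ± 0.70 UPM in TAC and 21.5 ± 5.12 in Sham (SD, n = 3 each), from 29 UMIs over the TAC libraries and 145 over the Sham libraries. Its log2 fold change, TAC over Sham, was -2.45 (SE 0.33), with an adjusted p of 0.0338 in edgeR's quasi-likelihood test with Benjamini-Hochberg adjustment over 1244 tested unannotated sequences. It stood at rank 1 by p among them.

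The 21-base miR-382-3p form had 1.39, 1.86 and 1.31 UPM in TAC, against 8.72, 6.35 and 11.9 in Sham. The groups again did not overlap. Its TAC counts were 4, 4 and 3 UMIs and its Sham counts 30, 15 and 14. Every listed sequence reached 10 UMIs in some library, so this form is in the table through its Sham libraries alone. Its log2 fold change was -2.53 (SE 0.42), just short of the threshold of 0.05 in edgeR (adjusted p = 0.0542), and by p it stood at rank 3. Both lengths share a 5′ end and so are not independent of each other. The 21-base form made up 27.5% of their summed UMIs in TAC (11 of 40, exact 95% binomial interval 14.6% to 43.9%) and 28.9% in Sham (59 of 204, 22.8% to 35.7%).

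Of the 6 sequences 5 passed the filter on low counts and were tested, 1 fell (the 22-base miR-382-3p form) and 0 rose. The 22-base form held 10, 8 and 11 UMIs in TAC 1, 2 and 3, near the filter's minimum of 10. It passed the filter through its Sham libraries (76, 38 and 31 UMIs), which favours a lower TAC value among tested sequences. With no filter its adjusted p in edgeR was 0.0202. Over all 1244 tested sequences 0.161% fell and 0% rose, with a median log2 fold change of -0.01; 259 had an unadjusted p under 0.05, and DESeq2 called 10 higher. DESeq2 called the 22-base form lower (adjusted p = 0.000115), where it called 3.66% of 1147 sequences lower. Fitted in 1 table with the annotated miRNAs, where edgeR called 5.37% of 1508 features lower, the 22-base form fell as well (adjusted p = 0.00659). It also passed with the replicate number as a block, where 7.07% of all tested sequences were called lower. The 21-base form was called in these 3 fits too, and in edgeR at a threshold of 0.1, where 5.79% were called lower. Since it was listed through its Sham libraries alone, which favours a lower TAC value, these calls are not read as support. The 3 fits used the same filter, so their calls of the 22-base form are not read as separate support either. The edgeR call of the 22-base form was lost without TAC 1 (adjusted p = 0.211), without TAC 2 (0.164) or without Sham 1 (0.0849), and over all alternatives its log2 fold change lay between -2.64 and -2.12 and its adjusted p between 0.000115 and 0.211.

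**Figure D1:**
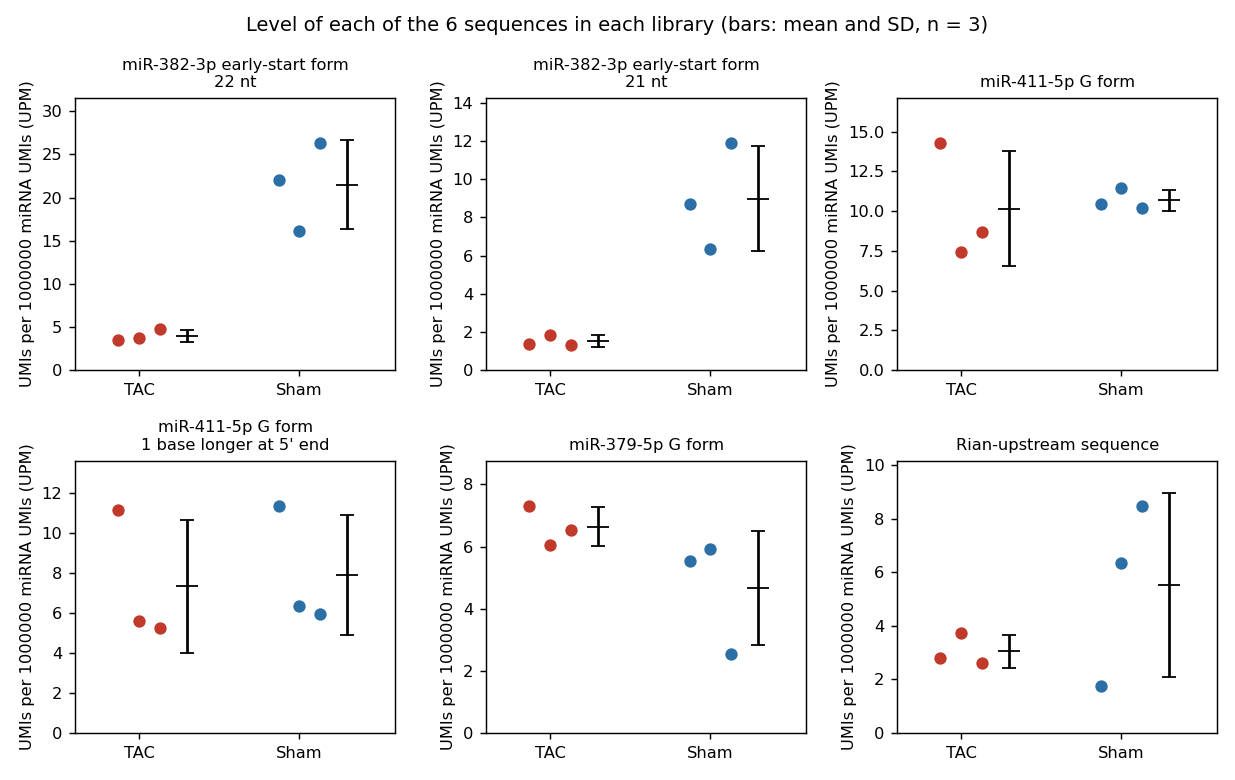
Level of each of the 6 sequences in each library, in UPM on a linear axis from 0, with TAC libraries 1 to 3 (red) left of Sham libraries 1 to 3 (blue); black bars give the mean and SD (n = 3). Both miR-382-3p forms lie below every Sham library in TAC (4.0 against 21.5 UPM on average for the 22-base form), while the G forms of miR-411-5p overlap between the groups.

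The miR-411-5p G form, with the annotated 5′ end, had 14.3, 7.46 and 8.72 UPM in TAC 1, 2 and 3, against 10.5, 11.4 and 10.2 in Sham 1, 2 and 3. TAC 1 was the highest library and TAC 2 the lowest, so the groups overlapped. The form that starts 1 base earlier had 11.1, 5.59 and 5.23 UPM in TAC and 11.3, 6.35 and 5.94 in Sham, again overlapping, with library 1 the highest in each group. Their log2 fold changes were -0.10 (SE 0.34) and -0.19 (SE 0.43), and neither passed in edgeR (adjusted p = 0.919 and 0.878). Both values turned positive, to 0.21 and 0.12, when the scaling was taken from the miRNA table, which moved the median of all tested sequences to 0.31. The earlier-starting form made up 42.1% of the miR-411-5p G forms in TAC (56 of 133 UMIs, exact 95% binomial interval 33.6% to 51.0%) and 44.9% in Sham (61 of 136, 36.3% to 53.6%).

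The miR-379-5p G form had 7.31, 6.06 and 6.54 UPM in TAC and 5.52, 5.93 and 2.54 in Sham. Every TAC library was above every Sham library, but TAC 2 (6.06, from 13 UMIs) and Sham 2 (5.93, from 14 UMIs) differed by far less than counting error. On the same scale 13.4% of all 1832 listed sequences had every TAC library above every Sham library, and 8.79% had every TAC library below, as both miR-382-3p forms did. The log2 fold change was 0.37 (SE 0.36, adjusted p = 0.651 in edgeR), which was not past the threshold. Sham 3 held 3 UMIs, and without it the log2 fold change was 0.16.

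The sequence upstream of Rian had 2.78, 3.73 and 2.61 UPM in TAC and 1.74, 6.35 and 8.48 in Sham. The Sham libraries spread more widely than the groups differed, with Sham 1 the lowest of all 6 libraries. It averaged 3.04 ± 0.60 UPM in TAC and 5.53 ± 3.44 in Sham (SD, n = 3 each, exact two-sided permutation p = 0.4). With 53 UMIs in all it did not pass the low-count filter. It reached 10 UMIs in Sham 2 and Sham 3 alone. Without Sham 3 the difference of the means shrank to -1.01 UPM, against -2.48 with all libraries, and without Sham 1 it was -4.37.

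The annotated miRNAs of the same hairpins show what the G forms can be set against. The annotated miR-411-5p had 164, 180 and 134 UPM in TAC 1, 2 and 3, against 436, 491 and 359.5 in Sham 1, 2 and 3, with no overlap. The annotated miR-379-5p had 278, 276 and 237 UPM in TAC, against 609, 642 and 843 in Sham, also with no overlap. How often the groups do not overlap among all annotated miRNAs was not counted, so the lack of overlap alone does not set these miRNAs apart. The 5p arm of the Mir382 hairpin, miR-382-5p, had 74.4, 58.7 and 72.3 UPM in TAC, against 269, 257 and 362 in Sham. In the joint edgeR fit with the unannotated sequences the log2 fold changes were -1.42 (SE 0.23) for miR-411-5p, -1.41 (SE 0.23) for miR-379-5p and -2.11 (SE 0.25) for miR-382-5p, each past the threshold (adjusted p = 0.0100, 0.0100 and 0.00364). In that fit the G forms had -0.06 (SE 0.33) and, with the earlier start, -0.14 (SE 0.41) for miR-411-5p, and 0.42 (SE 0.35) for miR-379-5p. Those of the miR-382-3p forms were -2.40 (SE 0.33) and -2.48 (SE 0.42).

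**Figure D2:**
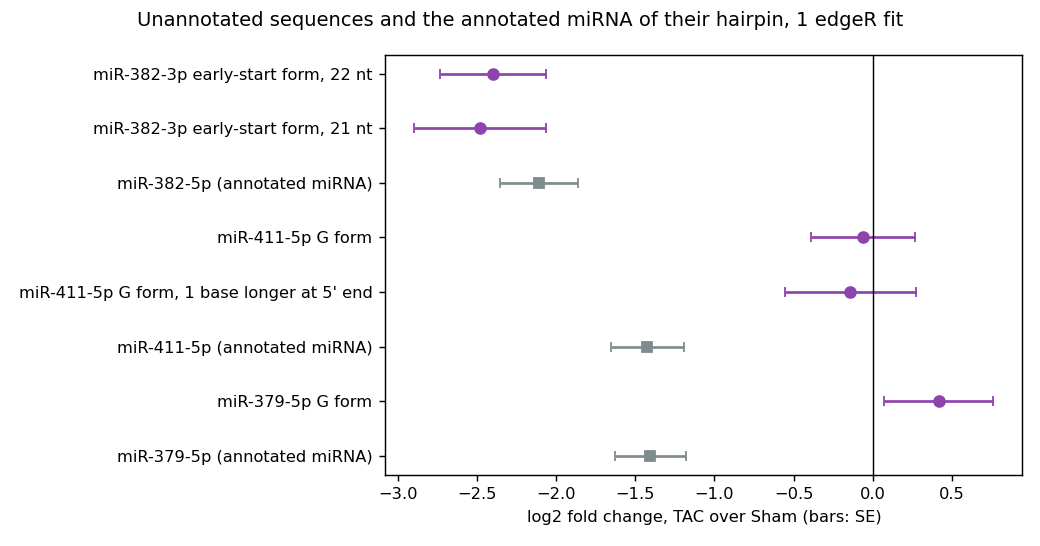
Log2 fold change, TAC over Sham, with its SE (bars), for the unannotated sequences (purple circles) and the annotated miRNA of the same hairpin (grey squares), from 1 edgeR fit of both tables. The miR-382-3p forms (-2.40 and -2.48) lie beside miR-382-5p (-2.11), while the G forms lie between -0.14 and 0.42 and their annotated miRNAs at -1.42 and -1.41.

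For both miRNAs the share of the G form within its arm did not overlap between the groups, and TAC had the higher values. The same held for 10 of 63 A-to-G sites in miRNAs outside the region (15.9%), with TAC the lower group at 4 others, so the lack of overlap alone does not set the pair apart. The share was taken within each library as UMIs of the G form over those of the G form and the annotated miRNA together, so that the scaling between libraries drops out. For miR-411-5p, with both G sequences summed, it was 13.4%, 6.75% and 9.44% in TAC 1, 2 and 3, against 4.76%, 3.50% and 4.29% in Sham 1, 2 and 3. The lowest TAC library was above the highest Sham library, though the exact 95% binomial intervals of TAC 2 (4.53% to 9.60%) and Sham 1 (3.77% to 5.94%) overlapped. The means were 9.87% ± 3.36 in TAC and 4.18% ± 0.64 in Sham (SD, n = 3 each), a difference of 5.68 percentage points. An exact two-sided permutation test gave p = 0.1 (0.14 adjusted over the 7 single values tested this way), and a design of 3 and 3 libraries cannot give less. Both G shares, like the miR-382 ratio below, were chosen after seeing the values, and the adjustment does not cover that choice. Without the earlier-starting sequence the difference was 3.57 percentage points.

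For miR-379-5p the share was 2.56%, 2.15% and 2.68% in TAC 1, 2 and 3, against 0.898%, 0.915% and 0.301% in Sham 1, 2 and 3. All TAC libraries were above all Sham libraries, and Sham 3, the shallowest library, was the lowest. The means were 2.47% ± 0.28 in TAC and 0.705% ± 0.35 in Sham (SD, n = 3 each), a difference of 1.76 percentage points (exact permutation p = 0.1, adjusted 0.14). Summed over libraries the G forms counted 182 UMIs in TAC and 172 in Sham over all 3 sequences. The annotated miRNAs, by contrast, counted 1165 in TAC and 3082 in Sham for miR-411-5p, and 1934 in TAC and 4606 in Sham for miR-379-5p. Whether the G reflects A-to-I editing was not tested, since no genomic sequence of these mice was used here, and whether the authors' counting of annotated miRNAs took in mismatched reads is not stated in the sources used here.

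**Figure D3:**
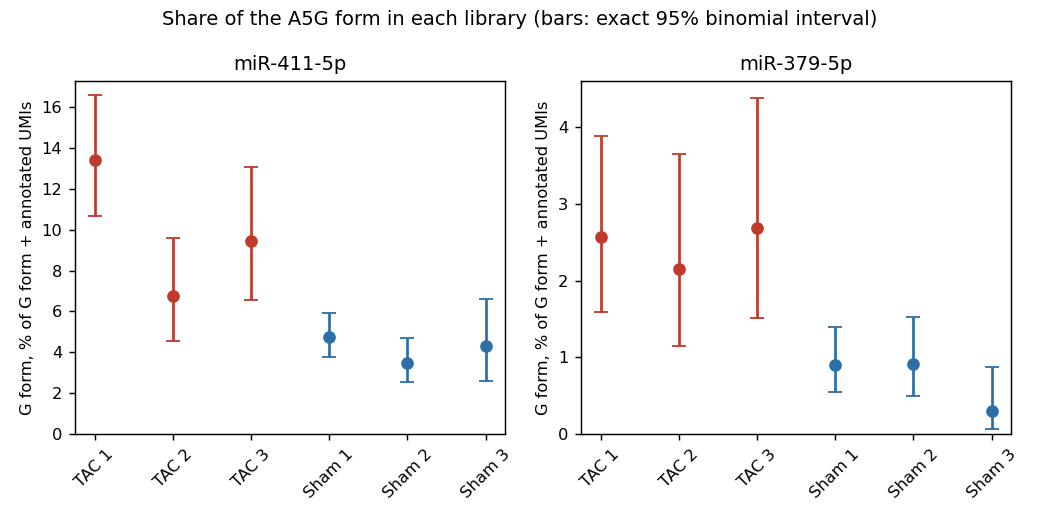
Share of the A5G form in its arm in each library, in percent of the UMIs of the G form and the annotated miRNA together, for miR-411-5p (left) and miR-379-5p (right), with exact 95% binomial intervals; TAC libraries are red and Sham libraries blue. The shares run from 6.75% to 13.4% in TAC and 3.50% to 4.76% in Sham for miR-411-5p, and from 2.15% to 2.68% in TAC and 0.301% to 0.915% in Sham for miR-379-5p.

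The early-start forms of miR-382-3p, in contrast, were set against the other arm of their hairpin, since the annotated miR-382-3p was not listed. They numbered 6.54, 9.52 and 8.43 per 100 UMIs of miR-382-5p in TAC 1, 2 and 3, against 11.5, 8.75 and 10.5 in Sham 1, 2 and 3, so that the groups overlapped. The means were 8.17 ± 1.51 in TAC and 10.3 ± 1.39 in Sham (SD, n = 3 each, exact permutation p = 0.2, adjusted 0.233). With the 22-base form alone the means were 5.88 in TAC and 7.25 in Sham, a difference of -1.37 against -2.09 with both forms, and the groups again overlapped.

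Single A-to-G changes also occurred in other miRNAs, which gives a level to read the G forms against. Of the 525 sequences with 1 substitution, 102 (19.4%) were A-to-G, the most frequent kind, followed by T-to-A with 95. Grouped by miRNA and position, the A-to-G sequences fell into 65 sites, 63 of them in 18 miRNAs outside the region. Over all libraries the G share of those 63 sites ran from 0.0166% to 0.240%, with a median of 0.0688%. The miR-411-5p site, with 5.96% over all libraries, and the miR-379-5p site, with 1.28%, stood first and second of the 65, 24.8 and 5.35 times the highest of the others. Within TAC these ratios were 40.2 and 9.68, and within Sham they were 18.6 and 3.42. The next sites were A5G in miR-29a-3p (0.240%), a miRNA that targets collagens, A5G in the muscle miRNA miR-206-3p (0.212%) and A5G in miR-16-5p (0.151%). Over all libraries, and by the Sham share, the first 5 ranks were at position 5, where 9 of the 65 sites lay. By the TAC share 4 of the first 5 were, with A9G in miR-125a-5p at rank 5.

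A limit of this comparison is that no listed sequence had fewer than 10 UMIs in every library, so low shares can be seen in abundant miRNAs only. The 18 miRNAs outside the region each had at least 35555 UMIs, against 4247 for miR-411-5p and 6540 for miR-379-5p. Within the region 43 of the 45 listed miRNAs had no sequence with 1 substitution in the table. For the 4 of these with at least 1000 UMIs, a single such sequence could have made up at most 0.282% (miR-434-3p, the deepest) to 2.02% (miR-434-5p) in the library with most UMIs of that miRNA without being listed. At this depth a single sequence with the summed share of miR-411-5p would have been visible in these 4. That share is split over 2 sequences, however, and in miR-434-5p a share split in this way could have stayed unlisted.

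The change of the share between groups can be placed the same way. The TAC share was 2.42 times the Sham share for miR-411-5p (10.2% and 4.23% over the summed libraries) and 3.19 times for miR-379-5p (2.47% and 0.776%). Among the 63 other sites this ratio ran from 0.511 to 2.52, with a median of 1.13, and was above 1 for 43. The highest of them, A7G in miR-125a-5p, rests on 48 UMIs in all. These ratios share their libraries and are given as a description, with no test.

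**Figure D4:**
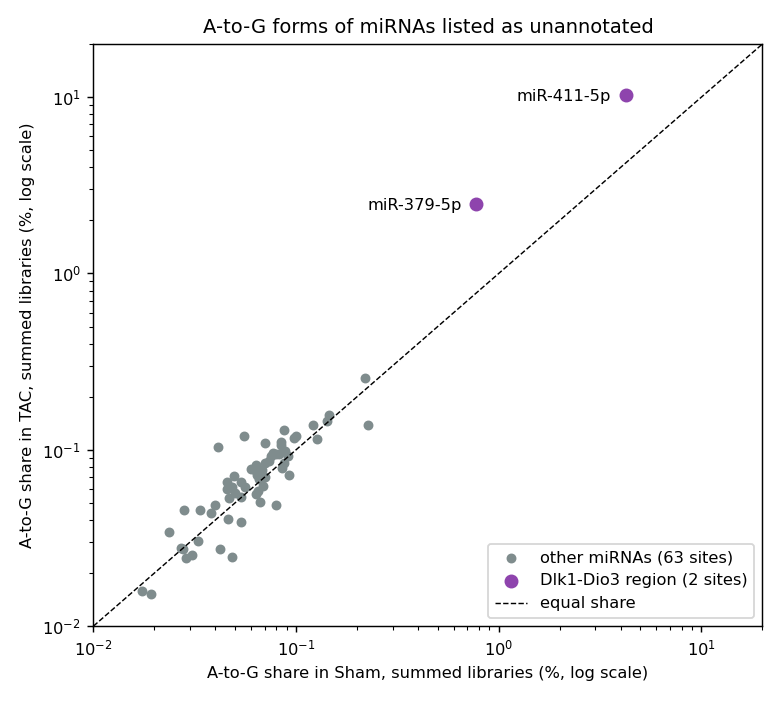
Share of A-to-G forms in TAC (y axis) and in Sham (x axis), in percent over the summed libraries of each group on log scales, for 63 sites in other miRNAs (grey) and the 2 sites of the Dlk1-Dio3 region (purple); the dashed line marks equal shares. The miR-411-5p site (10.2% in TAC, 4.23% in Sham) and the miR-379-5p site (2.47% in TAC, 0.776% in Sham) lie apart from the rest and above the line.

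Summed, the 6 sequences had 40.4, 28.4 and 29.2 UPM in TAC 1, 2 and 3, against 59.9, 52.5 and 65.3 in Sham 1, 2 and 3. All TAC libraries were below all Sham libraries, with means of 32.7 ± 6.67 in TAC and 59.2 ± 6.40 in Sham (SD, n = 3 each, exact permutation p = 0.1, adjusted 0.14). As a share of all unannotated UMIs they made up 0.0954% ± 0.0223 in TAC and 0.171% ± 0.0318 in Sham (exact permutation p = 0.1). The 21-base miR-382-3p form and the sequence upstream of Rian were listed through Sham libraries alone, which tilts these sums towards Sham. Without these 2 the means were 28.1 ± 7.10 UPM in TAC and 44.7 ± 4.80 UPM in Sham (SD, n = 3 each), a difference of -16.6 against -26.6 with all 6, and the groups still did not overlap. As a share of all unannotated UMIs they were then 0.0821% ± 0.0229 in TAC and 0.129% ± 0.0198 in Sham, and the groups overlapped (exact permutation p = 0.2). The 45 listed miRNAs of the region summed to 1164, 1189 and 1273 UPM in TAC, against 3928, 4232 and 4882 in Sham. The joint fit called 81 of all 1508 features lower (5.37%) and 27 higher, with a median log2 fold change of -0.01. Of the region's miRNAs in that fit, 34 of the 38 tested fell, 0 rose and all 38 were below 0, with a median log2 fold change of -1.91. The filter on low counts favours a lower TAC value for scarce miRNAs here too. How many of the 38 passed it through Sham libraries alone was not counted. The 6 sequences numbered 3.47, 2.39 and 2.29 per 100 UMIs of the region's annotated miRNAs in TAC, against 1.52, 1.24 and 1.34 in Sham. The ratio was higher in all TAC libraries than in any Sham library, with means of 2.72 ± 0.65 in TAC and 1.37 ± 0.14 in Sham (SD, n = 3 each, exact permutation p = 0.1, adjusted 0.14). Without the 2 sequences listed through Sham alone it averaged 2.34 in TAC and 1.04 in Sham, with no overlap. The sum and the ratio rest on different members. Over the summed libraries the miR-382-3p forms counted 40 UMIs in TAC and 204 in Sham, and the G forms 182 and 172. The lower sum thus came mainly from the miR-382-3p forms. The higher ratio came mainly from the G forms, which were not called lower while the annotated miRNAs of their arms were. The SEs of their log2 fold changes in the joint fit (0.33 to 0.41) leave room for a smaller fall.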

How the data were processed

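The tables deposited by the authors hold unnormalised counts, both of UMIs and of reads, per the file headers, with 6 library columns for each measure, that were matched to the samples by their descriptions. Per the labels' protocols, libraries were made with the QIAseq miRNA kit from total RNA. Positions refer to GRCm38, which the submitters' processing notes name; which aligner, mismatch rule and filters made the table is not given in the sources used here. Positions in the file count from 0 and are printed here from 1. Sequences with a start at chr12:109452823-110281097 were taken, and compared base by base with RefSeq hairpins that hold them wholly. A sequence was tied to the arm it overlaps by at least 15 bases.

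UMI counts of all unannotated sequences were tested with edgeR 4.0.16 (R 4.3.3; TMM scaling, low counts removed by filterByExpr at a minimum of 10 and a total of 15, quasi-likelihood F test, two-sided), with Benjamini-Hochberg adjustment and a threshold of 0.05. The code was tested on simulated data. Each SE is the size of the log2 fold change over the root of its F. DESeq2 1.42.0 and limma-voom 3.58.1 were alternatives, beside other scalings, no filter, reads, the miRNAs in the same fit, a replicate block and leaving out each library. Single values per library were compared with exact permutation tests (scipy 1.17.1). Named were sequences past the threshold and the most abundant ones, which takes in all 6. Members and lists were chosen with earlier results of these data known, and the G shares and the miR-382 ratio after seeing the values. Intervals cover counting error only.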

Additional observations from a re-analysis of the deposited data

How the results depend on the processing

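The count of the region's sequences past the threshold, 1 in the reported fit, was 0 with library sizes only and with library sizes over all RNA classes (the adjusted p of the 22-base miR-382-3p form was then 0.0502 in both). It was 2, both miR-382-3p forms, with the scaling of the miRNA table, by DESeq2, in 1 fit with the miRNAs and at a threshold of 0.1, where 129 of 1244 sequences passed in all against 2 at 0.05, 72 of them lower. Leaving out 1 library gave counts from 0 to 2. The log2 fold change of the 21-base form lay between -2.75 and -2.22. Signs of the miR-411-5p G forms turned with the scaling of the miRNA table (0.21, and 0.12 for the earlier start), without TAC 2 (0.0496 for the annotated start) and without Sham 1 (0.20 for the earlier start), none past the threshold; the lowest values were those without TAC 1 (-0.46, and -0.66 for the earlier start), and the cause was not tested.

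Same-numbered libraries correlated in their deviations from the group means with r = 0.09, 0.16 and 0.22 for numbers 1, 2 and 3, across unannotated sequences, so the numbers were not read as pairing. Each library correlated best with its own number, a hint from the data and not from the design. With the replicate block 2 of the 5 tested sequences passed (22 bases, adjusted p = 0.00539, and 21 bases, 0.00825), where 141 of 1244 sequences passed in all, 88 lower and 53 higher, against 2 without it. DESeq2 called 52 in all, limma-voom 1, the fit with the miRNAs 108, and the miRNA-based scaling gave 78 calls, 68 of them higher. Library sizes only, or over all RNA classes, gave 0 calls (252 and 256 at an unadjusted p under 0.05). Without Sham 2 or Sham 3 the count was 34 or 64, without TAC 3 it was 3, and without TAC 1, TAC 2 or Sham 1 it was 0 (192, 249 and 210 at an unadjusted p under 0.05).

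The direction of the summed level, the ratio to the region's miRNAs and both G shares held under each alternative run on them. Leaving out the 2 sequences listed through Sham libraries alone, an alternative chosen after seeing the data, brought the summed level to a difference of -16.6 UMIs per 1000000 miRNA UMIs against -26.6. The G share of miR-411-5p was higher in TAC by 3.91 to 7.25 percentage points over the fits that leave out 1 library, and by 3.57 without the earlier-starting sequence. That of miR-379-5p was higher by 1.56 to 1.92. The difference in miR-382-3p forms per 100 miR-382-5p UMIs ran from -2.84 to -1.27, the last without TAC 1. Single libraries hold 3 to 76 UMIs per sequence, which limits the precision of each level.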
